A study of Mus musculus with 12 samples.

Results

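The genes of the transcription factor AP-1 and of its relative ATF3 were followed in mouse bone-marrow macrophages and osteoclasts, with and without lipopolysaccharide (LPS), the cell wall component of Gram-negative bacteria. The members were 10 genes named by symbol: the FOS genes Fos, Fosb, Fosl1 and Fosl2, the JUN genes Jun, Junb and Jund, the BATF genes Batf and Batf3, and Atf3. Each symbol matched 1 of the 54532 Ensembl genes in the deposited table. The rule that picks them uses names and no measured value, although the set was chosen with earlier results of these data known. All cells came from the marrow of wild-type mice and were expanded in vitro with CMG, a source of the macrophage growth factor M-CSF. The groups were untreated macrophages, macrophages with LPS, untreated osteoclasts and osteoclasts with LPS, with 3 libraries each. The osteoclast groups received RANKL, the cytokine that drives osteoclast formation, given as 100 ng/mL in the sample labels, and the macrophage groups received none. The dose of LPS was 100 ng/mL, and cells were taken after 3 h of exposure that began on day 5. The strain, age and sex of the mice, and any pooling of animals, were not given in the sources used here. The labels do not say whether replicates came from separate mice or cultures, so the p-values measure only the spread between these libraries, which may be technical.

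AP-1 is a dimer of basic leucine zipper (bZIP) proteins. JUN proteins pair with one another or with FOS proteins, and FOS proteins bind DNA only with a partner. The dimers bind the TPA response element, TGACTCA, while ATF3 and other CREB/ATF-type dimers favour the related cyclic AMP response element, TGACGTCA. In the osteoclast lineage, c-Fos is required for osteoclast formation and acts with NFATc1 below the RANKL receptor. In macrophages, Toll-like receptor signalling reaches AP-1 through the MAP kinases, and ATF3 is known as an LPS-induced factor that restrains inflammatory cytokine genes.

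The libraries held between 15651957 and 20281568 reads recovered from the deposited values, and between 9728 and 10301 genes at 1 FPKM or more. FPKM is fragments per kilobase of gene, scaled by 1 denominator per library. These denominators followed size factors, so a change is relative to the typical gene. RANKL-treated libraries carried the osteoclast programme: each of 10 markers was higher in them than in macrophages, and 8 of 9 macrophage markers were lower, Cd68 being the one that was higher. Collagen-type stromal markers were present in macrophages and nearly absent in osteoclasts. The 6 stromal genes summed to 26.5 to 36.8 FPKM in untreated macrophages and 0.613 to 0.929 FPKM in untreated osteoclasts, and to 29.1 to 34.8 and 0.85 to 1.52 FPKM with LPS. In macrophages, Col1a1 carried most of this sum, while Alpl and Bglap stayed near 0. The 6 neutrophil genes summed to 4.25 to 12.3 FPKM in macrophages and at most 1.76 FPKM in osteoclasts, with Ly6g, Mpo and Elane at or near 0. S100a8 and S100a9 carried that sum in macrophages, with means of 1.96 and 2.96 FPKM untreated and 3.18 and 6.29 FPKM with LPS. The part of these cells in the differences between cell types below was not tested. Summed markers of B cells, erythroid cells and mast cells reached at most 1.14 FPKM. Those of T cells reached 2.97 FPKM in macrophages with LPS, mostly from Lck (mean 2.19) and Cd4 (0.584), with Cd3d, Cd3g and Cd8a at 0. Those of dendritic cells reached 6.02 FPKM there, nearly all from Xcr1, with Flt3 listed at 0.

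The sequences just upstream of the RefSeq starts of 3 members, Fos, Junb and Atf3, are shown first. They are examples that hold the motif matches described here, and the windows of some other members hold none. Each run is the 250 bases before the RefSeq start (build GRCm38.p6), read 5′ to 3′ on the gene's own strand. Capitals mark the matches found in a search of both strands. TGACG, or CGTCA on the other strand, is the first part of the cyclic AMP response element and also occurs inside it, and GGAGACCCCC in Fos is a match to the NF-kB site. The Fos window is chr12:85473640-85473889 on the plus strand. The Junb window is chr8:84978749-84978998 on the minus strand. The Atf3 window is chr1:191183334-191183583 on the minus strand, and up to 7 of its bases overlap an annotated Atf3 exon. It lies inside the Atf3 gene as GENCODE M21 draws it, since that annotation also holds a start further upstream than the RefSeq one.
Fos: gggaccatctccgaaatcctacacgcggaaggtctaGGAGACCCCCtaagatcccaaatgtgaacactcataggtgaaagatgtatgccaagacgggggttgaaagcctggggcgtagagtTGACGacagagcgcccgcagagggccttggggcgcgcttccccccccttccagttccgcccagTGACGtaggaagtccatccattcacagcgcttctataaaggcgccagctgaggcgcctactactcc
Junb: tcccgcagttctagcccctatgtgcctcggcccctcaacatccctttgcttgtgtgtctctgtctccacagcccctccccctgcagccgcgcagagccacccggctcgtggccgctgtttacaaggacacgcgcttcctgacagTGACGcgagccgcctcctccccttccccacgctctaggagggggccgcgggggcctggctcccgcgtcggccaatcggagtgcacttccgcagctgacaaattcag
Atf3: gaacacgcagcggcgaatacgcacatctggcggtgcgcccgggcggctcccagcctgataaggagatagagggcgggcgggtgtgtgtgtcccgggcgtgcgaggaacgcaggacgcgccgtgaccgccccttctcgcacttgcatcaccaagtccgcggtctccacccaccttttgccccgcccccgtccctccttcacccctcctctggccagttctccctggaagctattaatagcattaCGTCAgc

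A window was found for 9 of the 10 members, all but Fosl1. By GENCODE M21 the windows of Fosl2 and Batf3 lie inside the gene and overlap its annotated exons. Those of Batf and Fosb overlap an exon of their gene by up to 51 and 7 bases. The Jund window ends at chr8:70697738, before the annotated start at chr8:70698949. TGACG was in 5 of the 9 windows, those of Fos, Fosb, Junb, Batf and Atf3, and in 17.8% of the 32851 windows of all genes. The full elements TGACTCA and TGACGTCA were in 0 of the 9, and in 4.46% and 1.55% of all windows. The NF-kB site was in the windows of Fos, Fosb and Fosl2, 3 of 9, and in 3.9% of all windows. The CArG box, the binding site of SRF, was in 0 of 9 and in 1.47% of all windows. These are matches of letters in a window of fixed length and not measured binding. Sites more than 250 bases upstream were not searched, so a count of 0 does not speak to them.

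Some members also lie close to each other in the genome (GENCODE M21 on GRCm38). Fos (ENSMUSG00000021250) spans chr12:85473890-85477273 and Batf (ENSMUSG00000034266) spans chr12:85686669-85709087, both on the plus strand. They are 209 kb apart, and the 1 protein-coding gene between them is Jdp2 (chr12:85599027-85639878), itself a bZIP gene. Batf3 (ENSMUSG00000026630) at chr1:191097847-191108945 on the plus strand and Atf3 (ENSMUSG00000026628) at chr1:191170296-191218039 on the minus strand are 61.4 kb apart, with Fam71a between them. The other members are not close neighbours.

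Of the 10 members, 8 reached 1 FPKM in 3 or more libraries and were tested, as were 11335 genes in all. Fosb and Batf3 did not. Batf passed only through macrophages with LPS and 2 libraries of osteoclasts with LPS, and Fosl1 only through the 6 macrophage libraries. Log2 differences are limma estimates on log2(FPKM + 1) with their standard errors (SE), adjusted by Benjamini-Hochberg over all genes tested. This scale understates the change of low genes. In bulk samples, fewer cells of a type and less RNA per cell cannot be told apart.

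**Figure D1:**
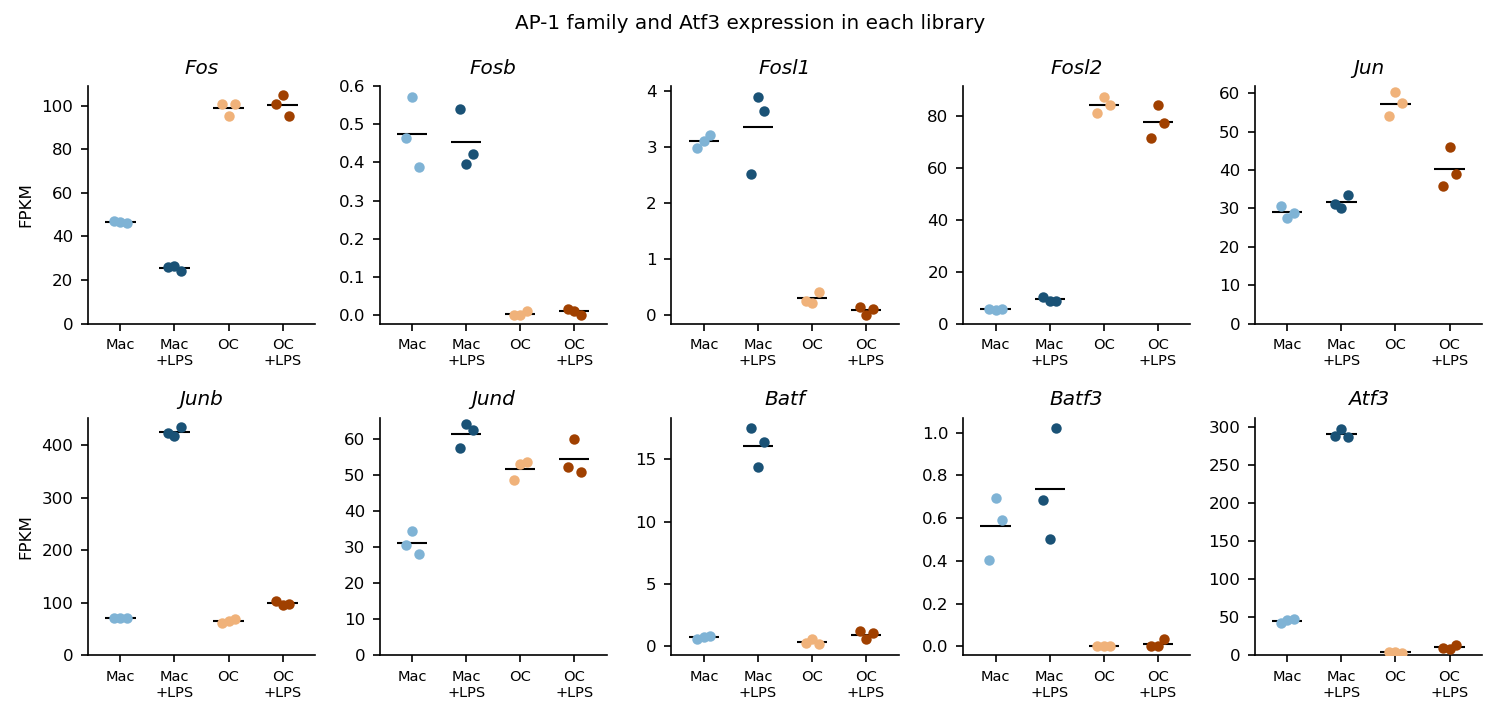
FPKM of each of the 10 members in the 12 libraries, with 1 panel per gene and its own linear axis that includes 0. Points are libraries of macrophages (Mac) and osteoclasts (OC), and horizontal lines are means of the 3 libraries of a group. Junb and Atf3 are highest in macrophages with LPS, Fosl2 is high in both osteoclast groups, and Fosb and Batf3 are near 0 in osteoclasts.

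Within the FOS genes, Fos and Fosl2 were the main osteoclast members, and Fosb and Fosl1 were macrophage members at low levels. Fos encodes c-Fos, the immediate early partner of JUN. Fos measured 47.0, 46.7 and 46.3 FPKM in untreated macrophages and 25.9, 26.4 and 24.2 FPKM with LPS. In osteoclasts Fos measured 101, 95.2 and 101 FPKM untreated and 101, 105 and 95.1 FPKM with LPS. Every macrophage library with LPS lay below every untreated one, while the osteoclast groups overlapped and lay above all macrophage libraries.

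At 3 h of LPS, Fos had fallen 1.83-fold in macrophages (log2 difference -0.85, SE 0.05, adjusted p = 7.1e-09), and the fall was larger in other scalings, -1.51 with every library scaled to the same total (TPM) and -1.39 after quantile normalization. In osteoclasts its means were 99.1 ± 3.45 and 100.5 ± 5.19 FPKM (SD, n = 3), and the difference did not pass the test (0.02, SE 0.05, adjusted p = 0.827). The LPS effects on Fos differed between the cell types by 0.87 (SE 0.07, adjusted p = 3.35e-07), osteoclasts minus macrophages, and by 1.45 and 1.30 in those scalings. The fall of Fos was thus found in macrophages, and the gap between the cell types was wider with LPS. Fos was 2.13-fold higher in osteoclasts than in macrophages without LPS (1.07, SE 0.05, adjusted p = 5.16e-10) and 3.94-fold higher with it (1.94, SE 0.05, adjusted p = 2.09e-12).

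Fosl2 encodes Fra-2, a FOS protein without the strong activation domain of c-Fos, which is known to act in bone cells. The gene (ENSMUSG00000029135) spans chr5:32135801-32157842 on the plus strand. Its values were 5.53, 5.33 and 5.46 FPKM in untreated macrophages and 10.4, 8.78 and 8.81 FPKM with LPS. In osteoclasts they were 81.2, 87.6 and 84.2 FPKM untreated and 71.6, 84.4 and 77.6 FPKM with LPS. The macrophage groups did not overlap, and each osteoclast library was far above each macrophage library.

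Of the 8 members tested, Fosl2 had the largest rise from macrophages to osteoclasts, 15.5-fold without LPS (3.73, SE 0.07, adjusted p = 3.89e-13). This was the 80th highest of 11335 differences. With LPS the ratio of means was 8.33 (2.93, SE 0.07, adjusted p = 1.92e-12). In macrophages LPS raised Fosl2 1.72-fold (0.68, SE 0.07, adjusted p = 2.45e-06), and after quantile normalization the difference was 0.58 and still called. In TPM it was 0.12 (SE 0.08, adjusted p = 0.179) and not called, in a scaling that moved the median of all genes by -0.55, and set against that median Fosl2 was at 0.67. The reads of this gene barely moved. The recovered reads of Fosl2 were 1241, 1213 and 1178 in untreated macrophages and 1289, 1269 and 1199 with LPS. In osteoclasts the LPS difference of Fosl2 was -0.12 (SE 0.07, adjusted p = 0.286), and the difference between the cell types' effects was -0.80 (SE 0.10, adjusted p = 2.3e-05), or -0.31 in TPM (adjusted p = 0.0272).

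Fosl1 encodes Fra-1, another FOS protein that lacks that domain and is itself a known AP-1 target. It (ENSMUSG00000024912) spans chr19:5447547-5455946 on the plus strand. Its values were 2.98, 3.11 and 3.21 FPKM in untreated macrophages and 2.52, 3.89 and 3.63 FPKM with LPS, and the groups overlapped. In osteoclasts Fosl1 rested on few reads, 8, 6 and 12 untreated and 5, 0 and 3 with LPS, or 0.254, 0.208 and 0.414 against 0.148, 0 and 0.0963 FPKM. Both osteoclast groups lay below all macrophage libraries.

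The Fosl1 mean was 10.6-fold lower in osteoclasts without LPS (-1.67, SE 0.11, adjusted p = 4.11e-08) and 41.1-fold lower with LPS (-1.99, SE 0.11, adjusted p = 5.59e-09). The latter rests on 8 osteoclast reads: the ratio of reads was 38.6 (exact 95% interval 19.3 to 90.4), and the ratio of means was 69.5 without LPS-treated osteoclast replicate 1 and 27.4 without replicate 2. Its LPS difference was 0.07 in macrophages (SE 0.11, adjusted p = 0.608) and -0.26 in osteoclasts (SE 0.11, adjusted p = 0.153), and the difference between the effects was -0.32 (SE 0.16, adjusted p = 0.109). These values depended on the settings. In TPM the macrophage difference was -0.51 (adjusted p = 0.0175), or 0.04 set against the median of all genes. The osteoclast difference was called with a pseudocount of 0.1 (-1.17), in TPM (-0.60) and after quantile normalization (-0.39). Without LPS-treated macrophage replicate 1, the difference between the effects was -0.47 and passed (adjusted p = 0.00644), and the osteoclast effect of -0.26 also passed narrowly. Fosl1 shares 1163 exonic bases of GENCODE M21 with Ccdc85b on the opposite strand, and the use of strand in counting was not stated, so its values are uncertain. The deposited Fosl1 values fit a length of 1707 bases and not the 2033 of that annotation. Its reads were recovered at 1707 bases, and the overlap in the gene model that was counted is not known. This partner was highest in untreated macrophages. Ccdc85b measured 20.1 ± 2.09 FPKM (SD, n = 3) in untreated macrophages and 4.35 ± 0.461 with LPS, against 3.65 ± 0.553 and 2.95 ± 0.959 in osteoclasts. The part of these reads in the Fosl1 differences was not tested.

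Fosb (ENSMUSG00000003545, chr7:19302696-19310051, minus strand) encodes an activating FOS protein that is induced as an immediate early gene. It was under 1 FPKM in every library. Its macrophage values were 0.463, 0.572 and 0.388 FPKM untreated and 0.54, 0.397 and 0.422 FPKM with LPS, which overlap. In osteoclasts the 3 untreated libraries held 1 read in all and the 3 with LPS held 3, against 205 and 117 in macrophages. Per deposited denominator this is a macrophage to osteoclast ratio of 156 without LPS (exact 95% interval 27.6 to 6176) and 50.0 with LPS (16.7 to 246), where the intervals cover counting error only. The ratio of means, 151 and 51.1, was 101 without untreated osteoclast replicate 1 or 2 and 87.2 without LPS-treated osteoclast replicate 1. Without untreated osteoclast replicate 3, which held the 1 read, no ratio can be formed. Tested without the filter, among the 25854 genes above 0, Fosb was lower in osteoclasts, with a log2 difference of -0.55 (SE 0.05, adjusted p = 4.14e-06) untreated and -0.52 (SE 0.05, adjusted p = 5.17e-06) with LPS.

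The makeup of the FOS pool does not depend on the scaling of a library, because it compares genes within the library. Fos made up 83.6% to 84.0% of the summed FOS FPKM in untreated macrophages and 65.3% to 66.9% with LPS. In osteoclasts its share was 52.0% to 55.3% untreated and 55.0% to 58.5% with LPS. Fosl2 took most of the rest, with 9.56% to 9.89% in untreated macrophages, 22.3% to 26.5% with LPS, and 44.6% to 47.9% and 41.4% to 44.9% in osteoclasts. The Fosl2 to Fos ratio was therefore 0.114 to 0.118 in untreated macrophages, 0.333 to 0.403 with LPS, and 0.709 to 0.92 over the 6 osteoclast libraries. The macrophage ranges without and with LPS do not overlap, and Fosl2 was higher relative to Fos with LPS. Fosl1 was 5.33% to 9.85% of the sum over the macrophage libraries and at most 0.222% over the osteoclast libraries.

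**Figure D2:**
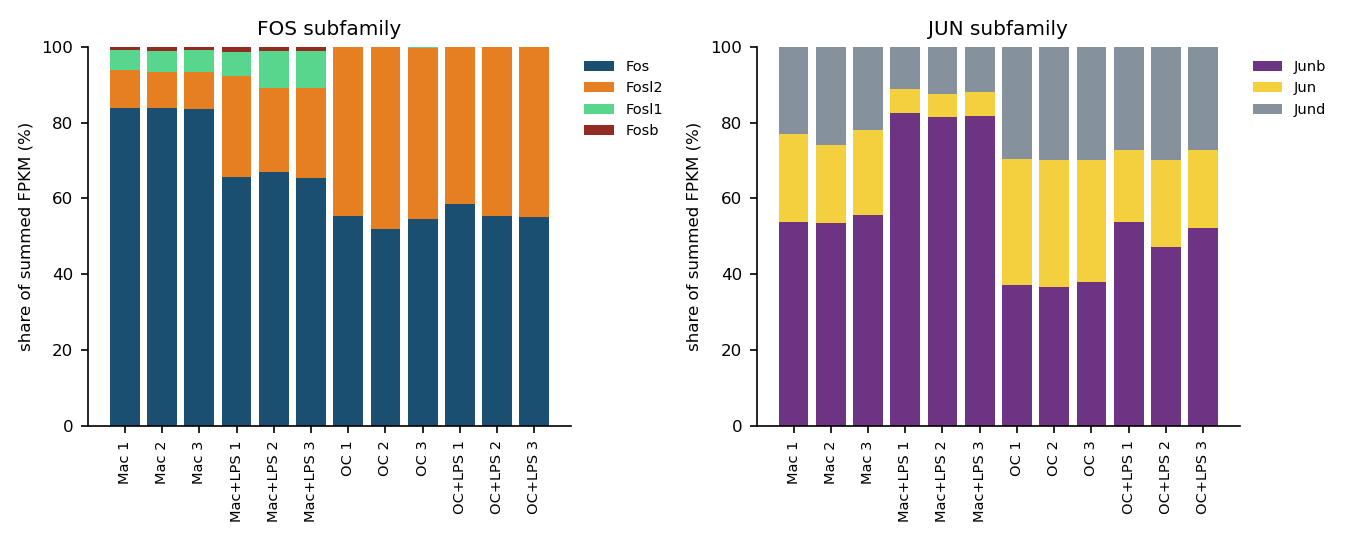
Share of each gene in the summed FPKM of the FOS genes (left) and of the JUN genes (right), in percent, for the 12 libraries. Each bar is 1 library of macrophages (Mac) or osteoclasts (OC), and its coloured parts add to 100%. Fosl2 takes 41.4% to 47.9% of the FOS sum in osteoclasts, and Junb takes 81.6% to 82.7% of the JUN sum in macrophages with LPS.

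Among the JUN genes, Junb rose in both cell types under LPS, Jund rose in macrophages, and Jun fell in osteoclasts. Junb encodes a JUN protein that is a weaker activator than c-Jun at many sites. The gene (ENSMUSG00000052837) spans chr8:84974484-84978718 on the minus strand, and 173 exonic bases are shared with Prdx2 on the other strand. Junb measured 71.3, 71.4 and 71.3 FPKM in untreated macrophages and 424, 418 and 434 FPKM with LPS. In osteoclasts it measured 60.5, 65.3 and 68 FPKM untreated and 103, 94.8 and 97.8 FPKM with LPS. No groups overlapped, and the macrophage libraries with LPS stood well above all others.

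LPS raised Junb 5.96-fold in macrophages (2.56, SE 0.05, adjusted p = 3.98e-13) and 1.53-fold in osteoclasts (0.60, SE 0.05, adjusted p = 1.81e-06). The effects differed by -1.96 (SE 0.06, adjusted p = 2.93e-10), so the osteoclast rise was the smaller, and by -1.39 in TPM and -1.30 after quantile normalization. By FPKM, Junb went from rank 491 to rank 121 among the genes of macrophages, and from 688 to 481 in osteoclasts. Untreated osteoclasts were 1.1-fold below untreated macrophages (-0.14, SE 0.05, adjusted p = 0.0123), and without osteoclast replicate 1 this difference was -0.10 and was not called (adjusted p = 0.0615). In other scalings it was larger, -0.56 in TPM (adjusted p = 7.86e-08) and -0.44 after quantile normalization (6.91e-07). With LPS the osteoclast level was 4.32-fold lower (-2.10, SE 0.05, adjusted p = 8.89e-13). The gap between the cell types in Junb was therefore mainly one of the LPS-treated groups. Prdx2 measured 37.8 ± 0.736 FPKM (SD, n = 3) in untreated macrophages and 46.3 ± 1.99 with LPS, and 75.1 ± 2.49 and 81.0 ± 3.93 in osteoclasts. The part of its reads in the Junb values was not tested.

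Jun, the gene of c-Jun and the founding member of the family, is a single exon (ENSMUSG00000052684, chr4:95049034-95052222, minus strand). Its values were 30.6, 27.5 and 28.9 FPKM in untreated macrophages and 31.2, 30.2 and 33.6 FPKM with LPS. In osteoclasts they were 54.1, 60.3 and 57.4 FPKM untreated and 35.9, 46.1 and 39.1 FPKM with LPS. The macrophage groups overlapped, whereas each osteoclast library with LPS was below each untreated one.

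In osteoclasts Jun fell 1.42-fold under LPS (-0.50, SE 0.08, adjusted p = 0.00108), the 163rd lowest of the 11335 differences. The macrophage difference was 0.12 (SE 0.08, adjusted p = 0.201). It turned negative under other scalings, -0.52 in TPM (adjusted p = 2.14e-04) and -0.39 after quantile normalization (adjusted p = 6.84e-04), so no direction is given for Jun in macrophages. The difference between the effects was -0.62 (SE 0.12, adjusted p = 6e-04), and it was not called in TPM (-0.06, adjusted p = 0.681) or after quantile normalization (-0.20, adjusted p = 0.129). TPM moved the median of all genes by 0.51 in this contrast, and set against that median Jun was at -0.57. Jun was higher in osteoclasts in both states. Jun was 1.97-fold higher in untreated osteoclasts than in untreated macrophages (0.96, SE 0.08, adjusted p = 3.27e-07) and 1.27-fold higher with LPS (0.33, SE 0.08, adjusted p = 0.00224). Junos, which shares 232 exonic bases with Jun on the other strand, was under 1 FPKM in every library, its highest value being 0.561.

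Jund (ENSMUSG00000071076, chr8:70698949-70700616, plus strand) is also a single exon and encodes the JUN protein known for broad, steady expression. It shares 877 exonic bases with Gm11175, which was listed at 0 in every library. It measured 30.7, 34.6 and 28.1 FPKM in untreated macrophages and 57.5, 64.2 and 62.5 FPKM with LPS. In osteoclasts it measured 48.5, 53.2 and 53.6 FPKM untreated and 52.2, 60.1 and 50.9 FPKM with LPS. The untreated macrophages were apart from and below the other groups, and the osteoclast groups overlapped.

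LPS raised Jund 1.97-fold in macrophages (0.96, SE 0.08, adjusted p = 4.3e-07), and in osteoclasts the difference was 0.07 (SE 0.08, adjusted p = 0.634). The effects differed by -0.89 (SE 0.11, adjusted p = 3.28e-05). In TPM the macrophage rise was 0.33 and the difference between the effects -0.34. Jund thus rose in macrophages to about the osteoclast level. Untreated osteoclasts were 1.66-fold above untreated macrophages in Jund (0.72, SE 0.08, adjusted p = 4.57e-06). With LPS the groups overlapped and the difference was -0.17 (SE 0.08, adjusted p = 0.0632). This difference depended on the scaling and on single libraries: it was -0.02 in TPM (adjusted p = 0.846) and 0.16 after quantile normalization (0.0866), so no direction is given. On the reported scale it passed without untreated macrophage replicate 2 (-0.17, adjusted p = 0.0402) or replicate 3 (-0.17, 0.0464), LPS-treated macrophage replicate 1 (-0.22, 0.0398) or LPS-treated osteoclast replicate 2 (-0.25, 0.0135). The difference also passed in the limma fit with a replicate block (-0.17, adjusted p = 0.0203) and by voom on recovered reads (-0.18, adjusted p = 0.0273).

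Within the JUN pool, Junb was the largest part in macrophages. Its share of the summed JUN FPKM was 53.5% to 55.6% in untreated macrophages and 81.6% to 82.7% with LPS, while that of Jun was 20.6% to 23.1% and then 5.88% to 6.34%. Untreated osteoclasts were the most even, with 36.5% to 38.0% Junb, 32.1% to 33.7% Jun and 29.7% to 29.9% Jund. With LPS, osteoclasts had 47.2% to 53.9% Junb and 18.8% to 22.9% Jun. The Junb to Jun ratio was higher with LPS in both cell types, without overlap. In macrophages it was 2.33 to 2.59 untreated and 12.9 to 13.9 with LPS, and in osteoclasts 1.08 to 1.19 and 2.06 to 2.87. These ratios do not change with the library scaling. The summed FOS genes were 0.418 to 0.431 of the summed JUN genes in untreated macrophages and 0.0699 to 0.077 with LPS. In osteoclasts the same ratio was 1.02 to 1.12 untreated and 0.904 to 0.945 with LPS.

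The BATF proteins are small bZIP factors that pair with JUN and lack an activation domain, and they bind composite sites together with IRF4 or IRF8. Batf measured 0.614, 0.756 and 0.83 FPKM in untreated macrophages and 17.5, 14.4 and 16.4 FPKM with LPS. In osteoclasts it measured 0.231, 0.547 and 0.167 FPKM untreated, from 6, 13 and 4 reads, and 1.19, 0.6 and 1.05 FPKM with LPS, from 33, 13 and 27 reads. The macrophage libraries with LPS stood apart from all others, and the osteoclast groups were apart by a narrow gap.

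Of the 8 members tested, Batf had the largest ratio of means under LPS, 22 in macrophages (3.30, SE 0.13, adjusted p = 3.82e-10). In osteoclasts the ratio was 3.0 (0.56, SE 0.13, adjusted p = 0.0116), and 4.75 without untreated osteoclast replicate 2. The ratio of reads there was 3.11 (exact 95% interval 1.92 to 5.2). This call was lost without untreated osteoclast replicate 3 (0.48, adjusted p = 0.0534), without LPS-treated osteoclast replicate 1 (0.47, 0.0511) and in a fit of the osteoclast groups alone (0.56, 0.0624). The macrophage response was the larger. The effects differed by -2.74 (SE 0.19, adjusted p = 1.38e-07), the 170th lowest of all genes tested. With LPS, Batf was 17.0-fold lower in osteoclasts than in macrophages (-3.15, SE 0.13, adjusted p = 2.82e-10). Without LPS it was 2.33-fold lower (-0.41, SE 0.13, adjusted p = 0.0138), or 3.68-fold without untreated osteoclast replicate 2, a call lost without untreated osteoclast replicate 3 (-0.33, 0.0594) and after quantile normalization (-0.18, 0.236).

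Batf3, the BATF gene known for its need in cross-presenting dendritic cells, was a macrophage transcript at the edge of detection. Its values were 0.405, 0.692 and 0.59 FPKM in untreated macrophages and 0.687, 0.503 and 1.02 FPKM with LPS, which overlap. Its reads totalled 62 and 49 in these groups, against 0 in untreated osteoclasts and 1 in osteoclasts with LPS. Set against a floor of 3 reads over the group, Batf3 was at least 15.7-fold lower in untreated osteoclasts. With LPS the macrophage to osteoclast ratio of reads was 62.8 (exact 95% interval 10.7 to 2529). That ratio rests on 1 osteoclast read, in replicate 3, which is under the floor. Tested without the filter, Batf3 was lower in osteoclasts, with a log2 difference of -0.64 (SE 0.10, adjusted p = 3.22e-04) untreated and -0.77 (adjusted p = 6.64e-05) with LPS. Irf8, the 1 BATF partner tested, measured 22.7 ± 1.05 FPKM in untreated macrophages, 95.1 ± 5.95 with LPS, and 1.08 ± 0.0753 and 0.745 ± 0.236 in osteoclasts (SD, n = 3).

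Atf3 was far higher in macrophages than in osteoclasts and rose under LPS in both cell types. It measured 42.4, 46.1 and 47.4 FPKM in untreated macrophages and 289, 298 and 287 FPKM with LPS. In osteoclasts it measured 4.23, 3.68 and 3.22 FPKM untreated and 9.73, 7.53 and 13.8 FPKM with LPS. No groups overlapped, and the highest osteoclast library, with LPS, was below the lowest untreated macrophage library.

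LPS raised Atf3 6.43-fold in macrophages (2.66, SE 0.15, adjusted p = 1.06e-08) and 2.79-fold in osteoclasts (1.24, SE 0.15, adjusted p = 1.19e-04). The osteoclast rise was the smaller, with a difference between the effects of -1.42 (SE 0.21, adjusted p = 1.23e-04), -0.74 in TPM (adjusted p = 0.011) and -0.82 after quantile normalization. On the log2(FPKM + 1) scale Atf3 had the largest fall from macrophages to osteoclasts of the 8 members tested, although by ratio of means with LPS Fosl1 was lower still. The Atf3 means were 12.2-fold lower without LPS (-3.30, SE 0.15, adjusted p = 9.15e-10) and 28.2-fold lower with LPS (-4.73, SE 0.15, adjusted p = 2.45e-11). With LPS this was the 70th lowest of the 11335 differences. Atf3 and Fos crossed: the Atf3 to Fos ratio was 0.903 to 1.02 in untreated macrophages, 11.1 to 11.9 with LPS, 0.0318 to 0.0419 in untreated osteoclasts and 0.0714 to 0.145 with LPS.

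**Figure D3:**
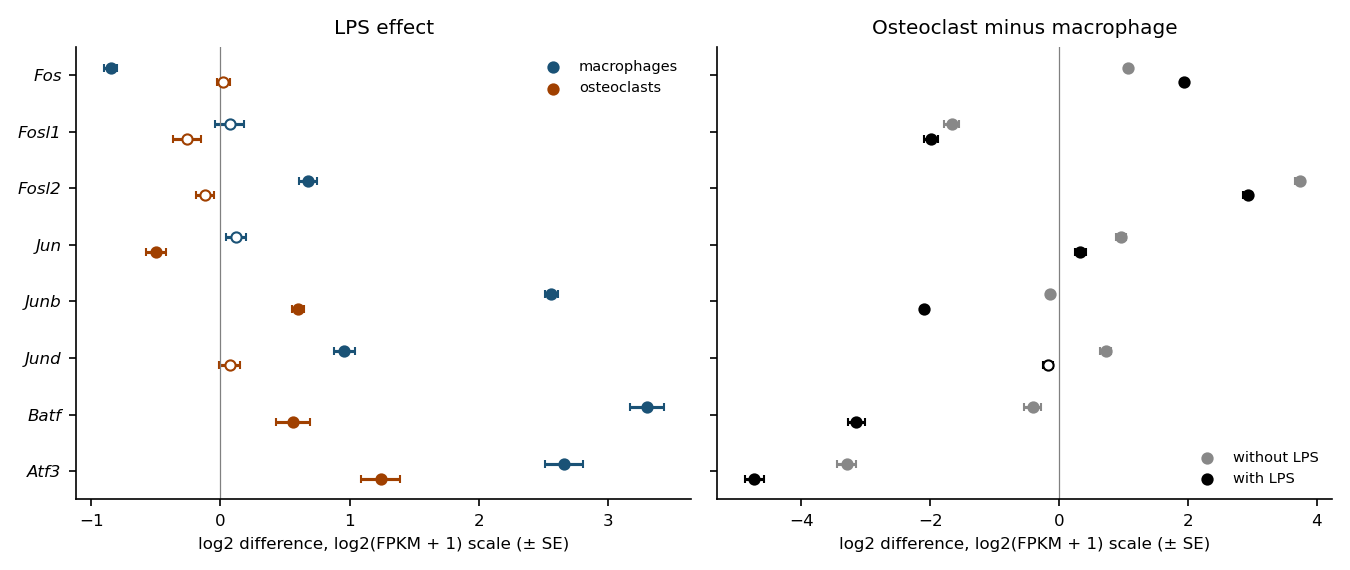
Log2 differences of the 8 members tested, on the log2(FPKM + 1) scale, with SE as error bars. The left panel gives the LPS effect in macrophages and osteoclasts, the right panel osteoclasts minus macrophages without and with LPS. Filled points have a limma adjusted p under 0.05. In the left panel Junb, Batf and Atf3 lie to the right in both cell types, and in the right panel Fos, Fosl2 and Jun lie to the right and Atf3 and Fosl1 to the left.

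Counted over the members, LPS in macrophages raised 5 of the 8 tested (Fosl2, Junb, Jund, Batf and Atf3) and lowered 1 (Fos), where 69.9% of all genes tested were called, 36.8% higher and 33.1% lower. A count of 6 of 8 is near that background. Their median log2 difference was 0.82, against 0.02 over all genes. In osteoclasts 3 rose (Junb, Batf and Atf3) and 1 fell (Jun), so 4 of 8 were called where 17.7% of all genes were. The medians there were 0.05 and 0.01. Batf, counted in both cell types, passed the filter only through libraries with LPS, where it is high. Groups did not overlap for 6 of the 10 members in macrophages, where 74% of genes tested were apart, and for 5 of 10 in osteoclasts, where 34% were. Fosb and Batf3, which were not tested, are not among the members apart, so these counts also hold for the 8 tested.

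Between untreated cell types, 4 members were higher in osteoclasts (Fos, Fosl2, Jun and Jund) and 4 lower (Fosl1, Junb, Batf and Atf3), where 77.8% of genes were called, 38.8% higher and 39% lower. With LPS, 3 were higher (Fos, Fosl2 and Jun) and 4 lower (Fosl1, Junb, Batf and Atf3), where 83.9% were called, 40.9% higher and 43% lower. Both counts are near the background. The groups were apart for 10 of 10 members without LPS and 9 of 10 with it, against 81.4% and 83.6% of genes tested. Fosb and Batf3, which were not tested, are among the members apart in both, so the sets are unlike. The LPS effects differed between the cell types for 7 of the 8, against 56.6% of all genes, 26.6% higher and 30% lower: 1 was more positive in osteoclasts (Fos) and 6 were less so (Fosl2, Jun, Junb, Jund, Batf and Atf3). The comparisons share their groups, so these counts are not independent. They include Fosl1, which passed the filter only through macrophages. They also include Batf, which passed only through macrophages with LPS and some osteoclast libraries with LPS. The direction of these genes is thus tied to the filter.

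The order of levels was thus different in each group. In untreated macrophages it ran Junb, then Fos and Atf3, which overlapped, then Jund and Jun, which overlapped, then Fosl2, Fosl1, Batf, Batf3 and Fosb, where Batf, Batf3 and Fosb overlapped in turn. With LPS the order in macrophages was Junb, Atf3, Jund, Jun, Fos, Batf, Fosl2, Fosl1, Batf3 and Fosb. In that order Batf3 and Fosb overlapped. In untreated osteoclasts it was Fos, Fosl2, Junb, Jun, Jund and Atf3, with no overlap between neighbours, then Batf and Fosl1, which overlapped, with Fosb and Batf3 at or near 0. In osteoclasts with LPS, Fos and Junb were the highest and overlapped, Fosl2 followed, and Jund, Jun, Atf3 and Batf came next, each below the one before.

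**Figure D4:**
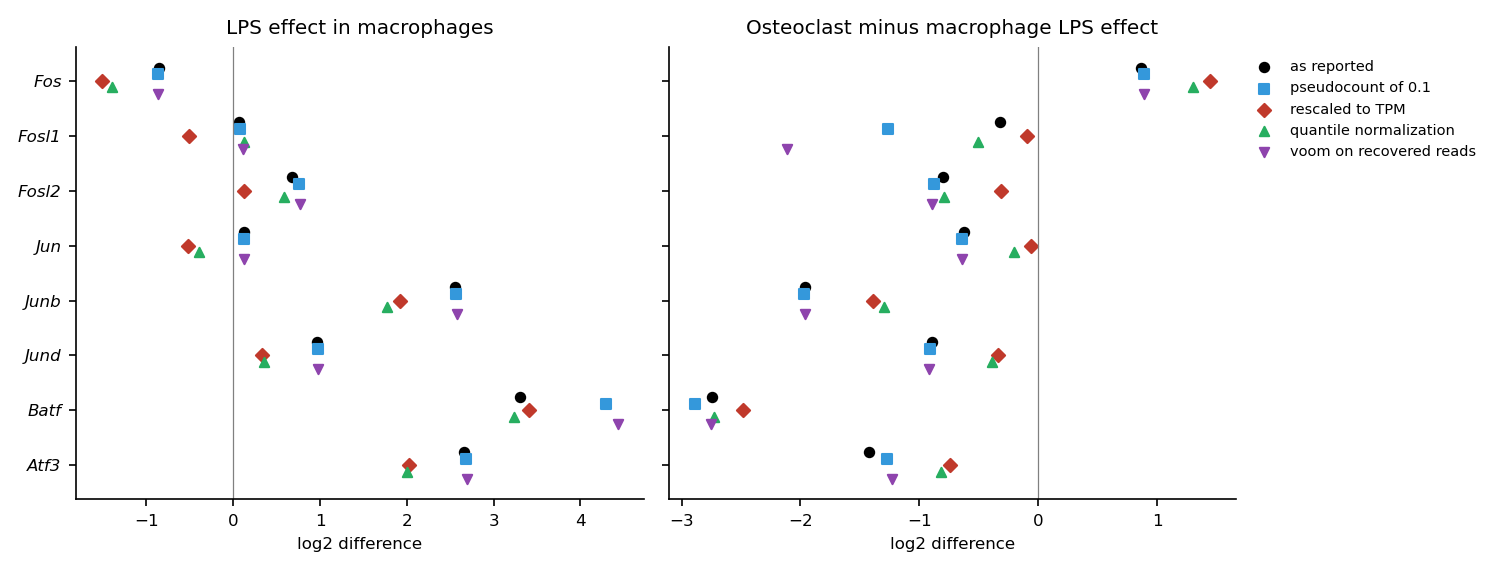
Log2 differences of the 8 members tested under 5 ways of scaling or testing, for the LPS effect in macrophages (left) and for the osteoclast LPS effect minus the macrophage one (right). Each symbol is 1 estimate, with black circles for the values reported here on log2(FPKM + 1). In macrophages Jun and Fosl1 cross 0 when rescaled to TPM, and Jun also after quantile normalization, while Fos, Junb, Batf and Atf3 keep their side.

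The FPKM sums of the macrophage groups differed, 255852 to 261584 untreated and 399796 to 408994 with LPS. Rescaling to TPM moved the median of all genes by -0.55 in the macrophage LPS contrast and by 0.51 in the difference between effects. Read against that median, the TPM differences in macrophages were -0.96 for Fos, 0.04 for Fosl1, 0.67 for Fosl2, 0.03 for Jun, 2.47 for Junb, 0.88 for Jund, 3.96 for Batf and 2.58 for Atf3. Quantile normalization moved the median by -0.14, and against it Fos was at -1.25, Jun at -0.25 and Junb at 1.91. Not set against the median, the macrophage LPS effect was 1.92 for Junb and 2.03 for Atf3 in TPM, and 1.77 and 2.00 after quantile normalization. In the osteoclast LPS contrast the medians moved by -0.06 and -0.05.

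Relatives of AP-1 in the bZIP family were read next. Of 15 other ATF, CREB and BATF genes, 9 rose and 1 fell in macrophages, where 36.8% of genes rose and 33.1% fell, and their median was 0.30. In osteoclasts 1 rose and 0 fell, where 11.1% of genes rose, and their median was 0.03. The osteoclast count was 2 without LPS-treated macrophage replicate 1 or replicate 3, and 4 after quantile normalization.

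Jdp2, a repressive partner of JUN that lies between Fos and Batf, measured 9.23 ± 1.1 FPKM (SD, n = 3) in untreated macrophages and 216 ± 21.2 with LPS. It was already at 345 ± 13 FPKM in untreated osteoclasts and at 393 ± 28.6 with LPS. Its LPS difference was 4.41 in macrophages (SE 0.09, adjusted p = 8.35e-13) and 0.19 in osteoclasts (SE 0.09, adjusted p = 0.163), and the effects differed by -4.22 (SE 0.12, adjusted p = 1.29e-10). Jdp2 was thus high in osteoclasts with or without LPS, and high in macrophages only with it. Batf2, a BATF relative known as interferon-inducible, rose by 4.82 (SE 0.17) in macrophages and by 1.04 (SE 0.17) in osteoclasts, and was the 1 gene of the list called there. Ddit3, the gene of the stress factor CHOP, fell by 0.79 (SE 0.09) in macrophages.

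Of the 8 MAF and CNC genes tested, 5 rose and 3 fell in macrophages, where 36.8% and 33.1% of all genes did. In osteoclasts 4 rose and 3 fell, where 11.1% and 6.59% of all genes did, and 4 in all were called without untreated osteoclast replicate 1. Mafk, a small MAF without an activation domain, rose by 2.97 (SE 0.06) in macrophages and by 0.22 (SE 0.06) in osteoclasts. Bach1, the repressor that pairs with small MAF proteins, rose by 2.94 (SE 0.05) in macrophages and fell by 0.35 (SE 0.05) in osteoclasts. The list was lower in untreated osteoclasts for 7 of the 8, where 39% of all genes were, Nfe2l1 being the other. Of the 4 C/EBP genes tested, 2 rose and 2 fell in macrophages, where 36.8% and 33.1% of all genes did, and each of the 4 was lower in untreated osteoclasts than in untreated macrophages, where 39% were. Cebpa was the lowest of them at -3.96 (SE 0.09), and LPS lowered it by 3.21 (SE 0.09) in macrophages and by 1.97 (SE 0.09) in osteoclasts.

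**Figure D5:**
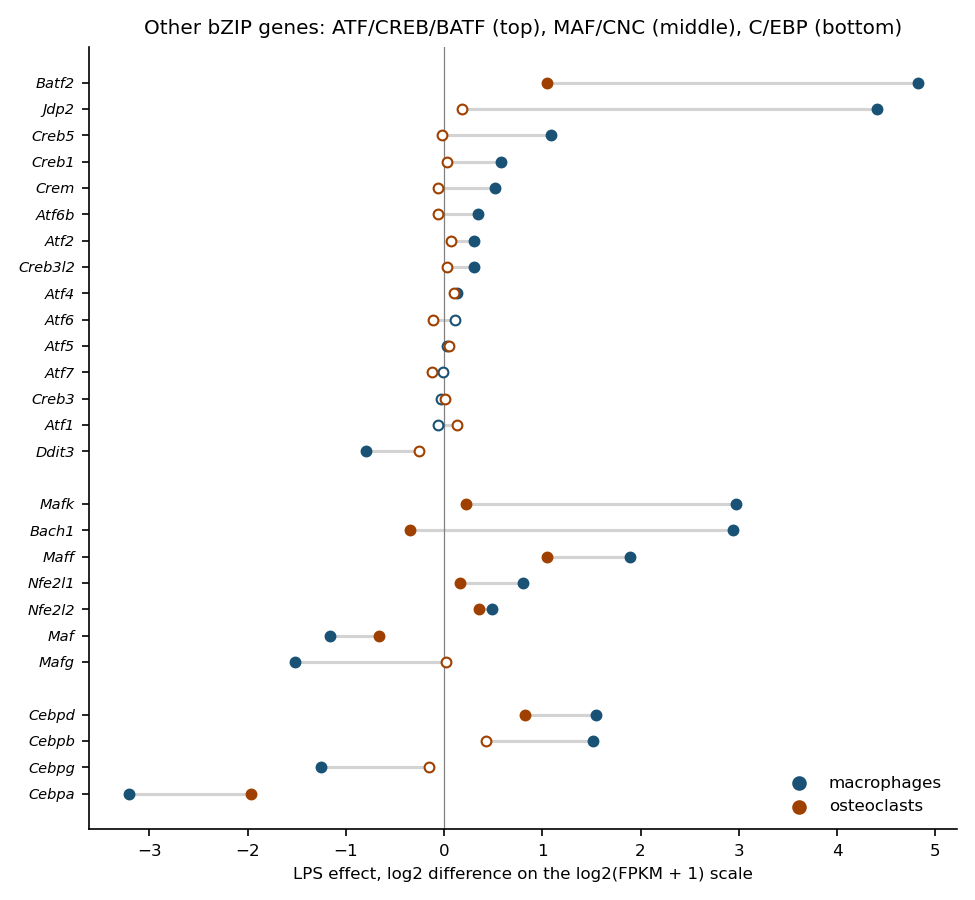
LPS effect in macrophages and in osteoclasts (log2 difference, log2(FPKM + 1) scale) for bZIP relatives tested, 1 row per gene, without the members and 1 gene not reported here. Blue points are macrophages, brown points osteoclasts, and filled points have a limma adjusted p under 0.05. Batf2 and Jdp2 have the largest macrophage rises among the relatives, at 4.82 and 4.41, and Cebpa has the largest falls of the genes drawn in both cell types.

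Upstream of AP-1, 24 of 25 genes of the MAP kinase pathways were tested. In macrophages 16 rose and 4 fell under LPS, with a median of 0.41, where 36.8% and 33.1% of all genes did. In osteoclasts 5 rose and 1 fell, with a median of 0.01, where 11.1% and 6.59% of all genes did. Map3k8, which encodes the kinase TPL2 that links Toll-like receptors to ERK, rose by 4.37 (SE 0.05) in macrophages and by 1.08 (SE 0.05) in osteoclasts. Mapkapk2, a kinase below p38, rose by 2.77 (SE 0.05) and 0.59 (SE 0.05). Tab1, an adaptor of the kinase TAK1, fell by 1.83 (SE 0.08) in macrophages.

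SRF and its ternary complex partners are known to act on the promoter of Fos, and MEF2 factors on that of Jun. Of 9 SRF, ternary complex and MEF2 genes, 7 fell and 1 rose under LPS in macrophages, with a median of -0.75, where 33.1% of genes fell. In osteoclasts 4 fell and 1 rose, with a median of -0.20, where 6.59% of genes fell. The 1 that rose there was Srf, by 0.40 (SE 0.08, adjusted p = 0.00451), and Srf fell by 0.57 (SE 0.08, adjusted p = 4.23e-05) in macrophages. The effects on Srf differed by 0.97 (SE 0.11, adjusted p = 1.47e-05). Mef2a fell by 1.47 (SE 0.04) in macrophages and by 0.27 (SE 0.04) in osteoclasts.

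Genes that AP-1 is known to act on were read in a pair of lists. The 10 osteoclast genes are the same as the osteoclast markers above, so their higher level in osteoclasts is no further evidence. Under LPS, 2 of the 10 rose in osteoclasts and 0 fell, where 11.1% and 6.59% of all genes did, so the count is near the background. They were Calcr, the calcitonin receptor (0.34, SE 0.06, adjusted p = 0.00122), and Nfatc1, the master factor of osteoclasts (0.23, SE 0.04, adjusted p = 0.00148), and 1 was called in TPM or after quantile normalization. Nfatc1 measured 114 ± 0.116 FPKM (SD, n = 3) in untreated osteoclasts and 134 ± 7.07 with LPS. In macrophages 3 of the 10 rose and 4 fell, where 36.8% and 33.1% of all genes did. After quantile normalization, in a fit of only the groups compared and by voom on recovered reads, 4 in all were called.

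Of 13 inflammatory genes tested, 11 rose and 2 fell in each cell type, where 36.8% and 33.1% of all genes did in macrophages and 11.1% and 6.59% in osteoclasts. Cxcl2, a neutrophil chemokine, rose by 6.61 (SE 0.14) in macrophages and 5.75 (SE 0.14) in osteoclasts. Il1b, the gene of interleukin-1β, rose by 9.28 (SE 0.12) and 2.32 (SE 0.12), and the effects differed by -6.96 (SE 0.18, adjusted p = 4.86e-11). Plau, the gene of urokinase, and Hmox1, that of heme oxygenase 1, were the 2 that fell. Plau fell by 1.98 (SE 0.07) in macrophages and 0.50 (SE 0.07) in osteoclasts.

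Genes with the pattern most like each member were named by the smallest root-mean-square difference of centred log2(FPKM + 1) over the 12 libraries. For Fosl2 this was Pstpip1 (0.05), a cytoskeletal adaptor, followed by Slc4a2 (0.09), an anion exchanger. For Fos it was Isca1 (0.07), an iron-sulfur cluster protein, and for Junb it was Dirc2 (0.08). Jun was closest to Tbc1d30 (0.12), Jund to Atp9b (0.09), Fosl1 to Esyt1 (0.12) and Batf to Zup1 (0.16). Atf3 had the least close neighbour, Marcks (0.21). The 12 libraries fall into 4 groups, so genes that share 4 group levels are alike by this measure.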

How the data were processed

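The authors deposited FPKM values for 54532 genes in 12 libraries. Per the submitters' processing notes, fastp, STAR, featureCounts, DESeq2 and build mm10 were named, with no versions or roles. Whole reads were recovered from the FPKM steps for 100% of the 25854 genes above 0 (tolerance 0.02 reads, 0.04 where the length was searched), and 96.7% matched annotated exon lengths of GENCODE M21. The denominators departed by at most 0.0007% from median-of-ratios size factors times the mean depth, so scaling to the typical gene is inferred from the values. Recovered totals give the depth per library.

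Differences were fitted with limma 3.58.1 in R 4.3.3 on log2(FPKM + 1), with a variance trend and all 12 libraries in 1 fit, for genes at 1 FPKM or more in at least 3 libraries (11335 genes). Tests were two-sided, with adjusted p under 0.05 called. The contrasts were LPS in each cell type, osteoclast minus macrophage at each LPS state, and the interaction. Replicate numbers were not used to pair samples. Intervals on read ratios are exact. Alternatives were a pseudocount of 0.1, no filter, TPM, quantile normalization, only the groups compared, a replicate block, no trend, voom on recovered reads, and each library left out. The scripts were tested on simulated data.

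The members, gene lists and tests were chosen with earlier results of these data known. Named list genes were the 2 highest and 2 lowest called genes per list and contrast, and fewer were printed. A gene of the MAF and CNC list is counted but not reported here. Likeness was ranked among the genes tested. Motifs were searched in RefSeq windows of 250 bases.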

Additional observations from a re-analysis of the deposited data

Results flagged for a closer look

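The LPS effect of 7 members differed between osteoclasts and macrophages by the test of the difference itself (limma interaction, adjusted over 11335 genes, of which 56.6% were called). The differences, osteoclast minus macrophage on the log2(FPKM + 1) scale, were 0.87 for Fos, -0.80 for Fosl2, -0.62 for Jun, -1.96 for Junb, -0.89 for Jund, -2.74 for Batf and -1.42 for Atf3. Fos fell in macrophages, and its osteoclast difference was not called. Jun fell in osteoclasts, and its difference was not called in TPM or after quantile normalization. For Junb, Batf and Atf3 the genes rose in both cell types and rose less in osteoclasts. Batf in osteoclasts rests on 23 reads untreated and 73 with LPS.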

How the results depend on the processing

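Of 792 comparisons of a member's difference with an alternative, 757 kept their direction and side of the threshold, 9 lost the call, 14 gained it and 12 changed sign. Of those 12, 3 passed the threshold after the change, in the macrophage LPS contrast: Fosl1 in TPM (-0.51, adjusted p = 0.0175), and Jun in TPM (-0.52) and after quantile normalization (-0.39). TPM moved the median of all genes by -0.55 in that contrast, and against it Fosl1 was at 0.04 and Jun at 0.03. The other 9 were uncalled before and after. They were Fos for LPS in osteoclasts in TPM (-0.05), after quantile normalization (-0.10) and without osteoclast replicate 2 of either group (-0.01 untreated, -0.02 with LPS), Jund for LPS in osteoclasts in TPM (0.0 after rounding), after quantile normalization (-0.02) and without LPS-treated osteoclast replicate 2 (-0.01), Fosl1 for LPS in macrophages without LPS-treated macrophage replicate 2 (-0.02), and Jund between cell types with LPS after quantile normalization (0.16). Over all fits with 1 library left out, these differences ranged from -0.02 to 0.06 for Fos, from -0.01 to 0.11 for Jund and from -0.02 to 0.21 for Fosl1. The cause of the quantile and left-out changes was not tested. The interaction of Fosl1 was called with a pseudocount of 0.1 (-1.26), after quantile normalization (-0.51) and by voom (-2.11). Leaving out 1 library changed 14 of 480 comparisons, and the count of members called ranged from 3 to 5 for LPS in osteoclasts and stayed at 6 for LPS in macrophages. Each of 198 counts of genes or members stayed within 1.5 times. Among 792 counts over the lists, 20 moved by more. Deviations of same-numbered libraries from their group means were at most weakly correlated (r from -0.07 to 0.10 over 18 pairs, 0 over 0.1). Such values cannot exclude a shared mouse or culture, so pairing by number stays unknown. With the replicate block, 7914 genes were called for LPS in macrophages, 1930 for LPS in osteoclasts and 6422 for the interaction, with 6, 4 and 7 members, and Jund with LPS passed between cell types (-0.17, adjusted p = 0.0203). Depth limits Fosb, Batf3 and, in osteoclasts, Fosl1 and Batf.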

Other observations

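The summed FOS genes reached 55.3 to 55.9 FPKM in untreated macrophages and 37.1 to 39.4 FPKM with LPS, against 182 to 186 and 173 to 189.9 FPKM in osteoclasts. The summed JUN genes reached 128 to 133 FPKM in untreated macrophages, 512 to 531 with LPS, and 163 to 179 and 188 to 201 FPKM in osteoclasts. Macrophages with LPS were thus the group with the least FOS and the most JUN transcript, the latter mostly Junb. Fos and Fosl2 stood at ranks 446 and 525 by FPKM in untreated osteoclasts, and at 802 and 5728 in untreated macrophages.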
